A study of Homo sapiens with 36 samples.

Results

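MET, RON and the TAM receptors AXL, TYRO3 and MERTK are growth factor receptors of the cell surface, and their transcripts were followed here together with those of 2 ligands, HGF and GAS6. The 7 genes (MET, MST1R, which encodes RON, AXL, TYRO3, MERTK, HGF and GAS6) were chosen by name, with earlier results of these data known. Of these, 6 were among the 19014 genes of the table of normalized counts, and MST1R was read from the FPKM table of 57820 genes. All 6 genes with normalized counts passed the filter on low values, MET and AXL only through their knockout libraries.

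The cells were H446, a human line established from small-cell lung cancer and assigned to its NEUROD1 subtype, named for a neurogenic transcription factor. Control clones 3, 10 and 13 had received a guide RNA without a target, and the knockout group held 3 clones in which NEUROD1 was disrupted with 1 and the same guide RNA (clones 12, 15 and 2-1). Every clone was given either the vehicle DMSO or 1 µM JQ1, an inhibitor of the BET bromodomain proteins that bind acetylated chromatin, for 24 h, in 3 biological replicates. All groups shared the parent line and the serum-containing medium, and each group is a sample of clones of 1 line. The clone was the unit of replication in every comparison of genotypes or treatments, with n = 3 clones in each group.

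HGF binds MET, and macrophage-stimulating protein binds RON. The receptor pairs then phosphorylate each other and recruit adaptors such as GAB1 and GRB2, which drive the RAS and PI3K pathways, motility and scattering of epithelial cells. GAS6 and protein S (PROS1) need a vitamin K-dependent modification and bridge TAM receptors, not each ligand all of them, to phosphatidylserine on dying cells and membranes. In macrophages MERTK serves the uptake of dead cells, and in carcinomas AXL and MET are known from mesenchymal cell states and from resistance to other kinase inhibitors.

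The DNA just before the transcription starts of MET, AXL and MERTK is shown because these 3 receptors were the members that differed between genotypes. The sequences are from RefSeq on GRCh38.p14, all on the plus strand, 5′ to 3′, and each ends at the start site or at the first base of an annotated GENCODE 29 exon. Capitals mark matches, on either strand, to the E-box letters CAGATG or CAGCTG, the TEAD-type letters GGAATG or the AP-1 letters TGACTCA. AXL has 2 listed starts, and the window of the second lies inside the gene, in no annotated exon.
MET, chr7:116671946-116672195: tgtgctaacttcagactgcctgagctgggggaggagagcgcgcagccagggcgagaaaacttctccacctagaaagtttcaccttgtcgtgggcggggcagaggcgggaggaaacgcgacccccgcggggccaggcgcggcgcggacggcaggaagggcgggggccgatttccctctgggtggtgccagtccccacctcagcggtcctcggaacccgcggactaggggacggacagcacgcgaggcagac
AXL, first start, chr19:41218973-41219202: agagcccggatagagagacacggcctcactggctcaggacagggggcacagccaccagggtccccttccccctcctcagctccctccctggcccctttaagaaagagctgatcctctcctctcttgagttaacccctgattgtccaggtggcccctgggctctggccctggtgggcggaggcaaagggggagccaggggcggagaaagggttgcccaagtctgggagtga
AXL, second start, chr19:41226505-41226754: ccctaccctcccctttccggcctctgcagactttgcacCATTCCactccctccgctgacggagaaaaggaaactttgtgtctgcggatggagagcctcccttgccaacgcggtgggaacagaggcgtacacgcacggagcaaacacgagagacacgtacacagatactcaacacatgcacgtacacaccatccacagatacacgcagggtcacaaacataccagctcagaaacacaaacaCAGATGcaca
MERTK, chr2:111898357-111898478: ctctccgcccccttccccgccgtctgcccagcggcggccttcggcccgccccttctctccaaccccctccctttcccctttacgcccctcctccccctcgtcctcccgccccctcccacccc

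The full windows of 250 bases before each start held no match in MET, MERTK or the first AXL start. The second AXL window held CATTCC, the reverse complement of GGAATG, at 212 bases and CAGATG at 10 bases before the start. Among 35116 RefSeq windows of this length, 12.2% held CAGATG, 14.0% CAGCTG, 11.9% GGAATG and 4.20% TGACTCA on either strand. The MET and MERTK windows held 24 and 25 CpG dinucleotides, against a median of 11 over all windows, and the first AXL window held 4. A match of letters describes the DNA and no binding was measured.

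MET (ENSG00000105976) lies on chromosome 7 at 116672390 to 116798386 on the plus strand of GRCh38, and HGF (ENSG00000019991) on the same chromosome at 81699008 to 81770438 on the minus strand. AXL (ENSG00000167601) lies on chromosome 19 at 41219203 to 41261766, MERTK (ENSG00000153208) on chromosome 2 at 111898479 to 112029561 and TYRO3 (ENSG00000092445) on chromosome 15 at 41557675 to 41583586, all on the plus strand. GAS6 (ENSG00000183087) lies on chromosome 13 at 113820549 to 113864067 and MST1R (ENSG00000164078) on chromosome 3 at 49887002 to 49903873, both on the minus strand. Exons of GAS6, AXL and MST1R overlap annotated antisense genes (GAS6-AS1, AC011510.1, and AC105935.1 with AC105935.2), and the sources used here do not say whether reads were counted by strand.

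NEUROD1 itself averaged 5998 ± 580 normalized counts in control and 1.87 ± 2.93 in knockout clones with DMSO (SD, n = 3 clones), and no knockout library exceeded 10.2. Of the 36 libraries, 35 held 13282337 to 18890506 recovered reads. The first JQ1 library of knockout clone 12 held 31825795 reads and stood apart: the 6 measured markers of lung epithelium summed to 68046 normalized counts there and to at most 136 elsewhere. It was left out, so that clone 12 with JQ1 rests on 2 libraries. The first JQ1 library of control clone 13 held traces of the same transcripts (CEACAM6 at 80.4 normalized counts), and its removal changed no call among the members.

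On the length-scaled FPKM, which allows levels of different genes to be compared, HGF was the highest of the 7 genes in 11 of the 12 combinations of clone and treatment. It averaged 28.8 to 40.8 FPKM in the control clones with DMSO. TYRO3 came next there, at 9.58 to 13.8 FPKM, and GAS6 and MERTK followed at 1.69 to 2.68 and 1.77 to 2.62 FPKM, with library ranges that overlapped in clone 13. MET, MST1R and AXL were each at or below 0.13 FPKM in every control clone with DMSO. The order in the knockout clones differed from clone to clone. In clone 12 with DMSO, MET was first at 68.6 ± 0.351 FPKM (SD, n = 3 libraries), above HGF at 44.1 ± 2.97. In clone 15, MET came second at 38.1 ± 1.05 FPKM and MERTK next at 16.7 ± 0.658. In clone 2-1, MET stood at 2.16 ± 0.574 FPKM and its libraries overlapped those of GAS6.

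**Figure D1:**
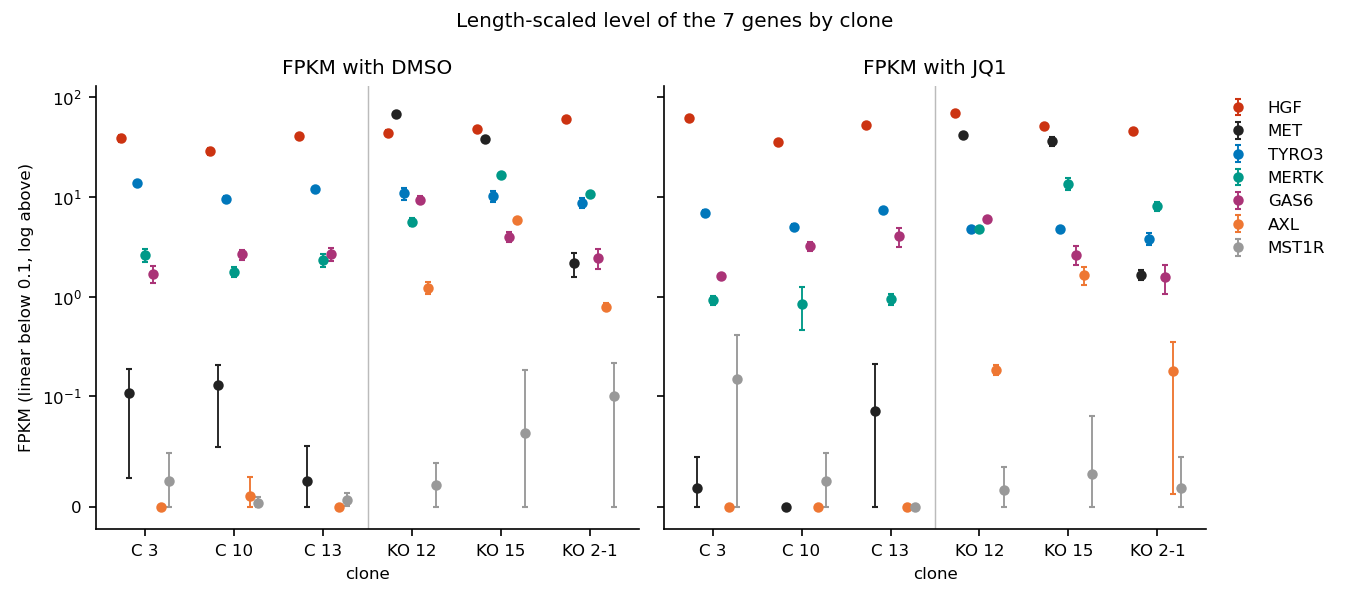
Mean FPKM of the 7 genes in each clone with DMSO (left) and with JQ1 (right), on an axis that is linear below 0.1 and logarithmic above; C marks control and KO knockout clones, bars show the SD over 3 libraries (2 for KO 12 with JQ1), and bars that would pass below 0 end there. HGF was the highest gene in every clone but KO 12 with DMSO, where MET reached 68.6 FPKM, and MST1R averaged at most 0.15 FPKM in every clone.

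Genotypes and treatments were compared with limma on log2(normalized count + 1), averaged over the libraries of each clone, with p-values adjusted over all 15711 genes tested and a threshold of 0.05. Fold changes on this scale understate those of genes near 0 counts. Between knockout and control clones with DMSO, 3 of the 6 members passed, all of them higher in the knockout, where 12.5% of all genes passed in either direction. With JQ1, the same 3 passed against 11.2% of all genes. JQ1 changed 4 of 6 members in control clones, against 52.7% of all genes, and 5 of 6 in knockout clones, against 56.5%. The JQ1 response differed between the genotypes for 3 of 6 members, against 7.35% of all genes. None of these 3 calls remained without any 1 of the 3 control clones. AXL, among the 3, had 1 read with DMSO and 0 with JQ1 over the control clones, so no fall could be measured there. MET and AXL could enter the counts of members only through the knockout clones and, between genotypes, could only be called higher. The treated and untreated groups are shared between comparisons. Members and partner lists were chosen with earlier results of these data known, so shares above those of all genes are no test of them. In bulk RNA, fewer cells with a transcript and less of it per cell cannot be told apart.

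**Figure D2:**
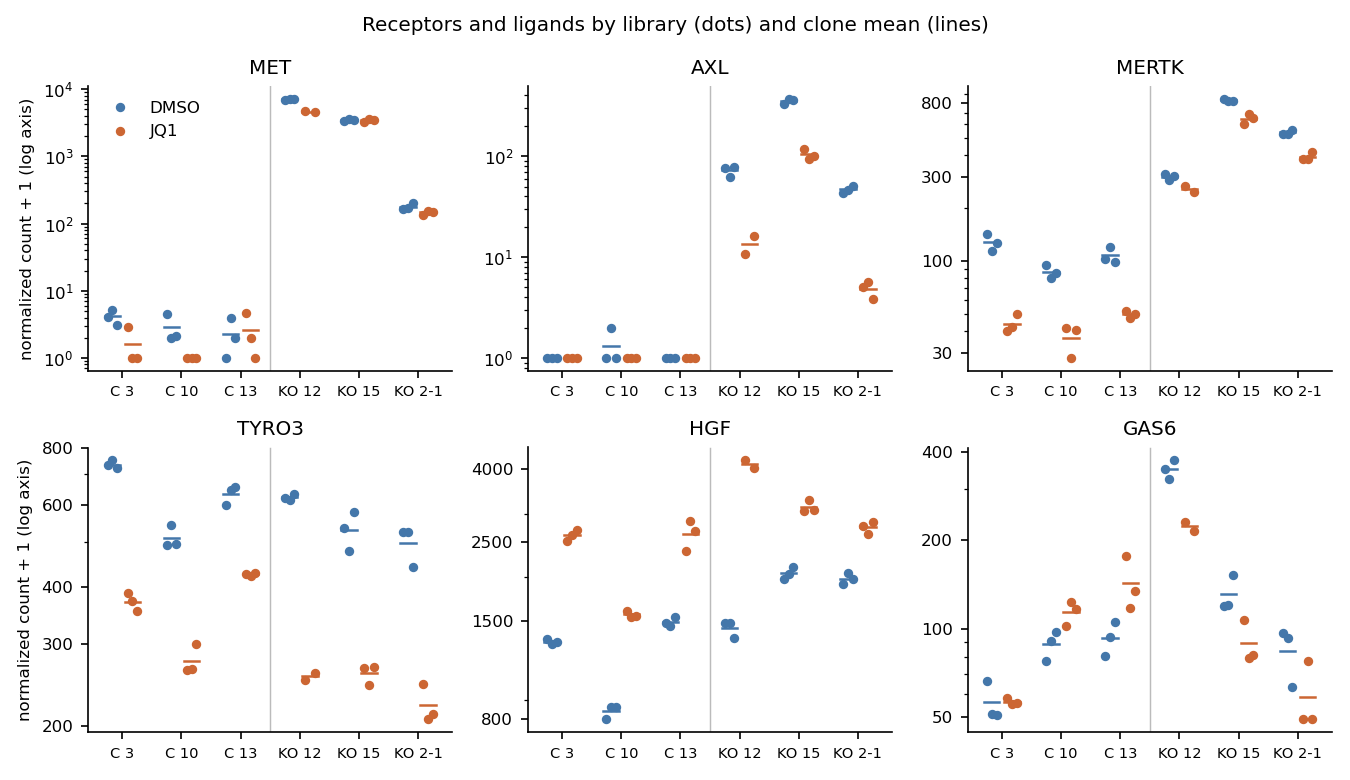
Normalized count + 1 of each gene (logarithmic axes, a separate scale for each gene) in every library, with DMSO in blue and JQ1 in orange; dots are libraries and short lines clone means, with control clones left and knockout clones right of the grey line. MET, AXL and MERTK of the knockout clones lie above every control library, whereas the ranges of TYRO3, HGF and GAS6 overlap between genotypes.

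**Figure D3:**
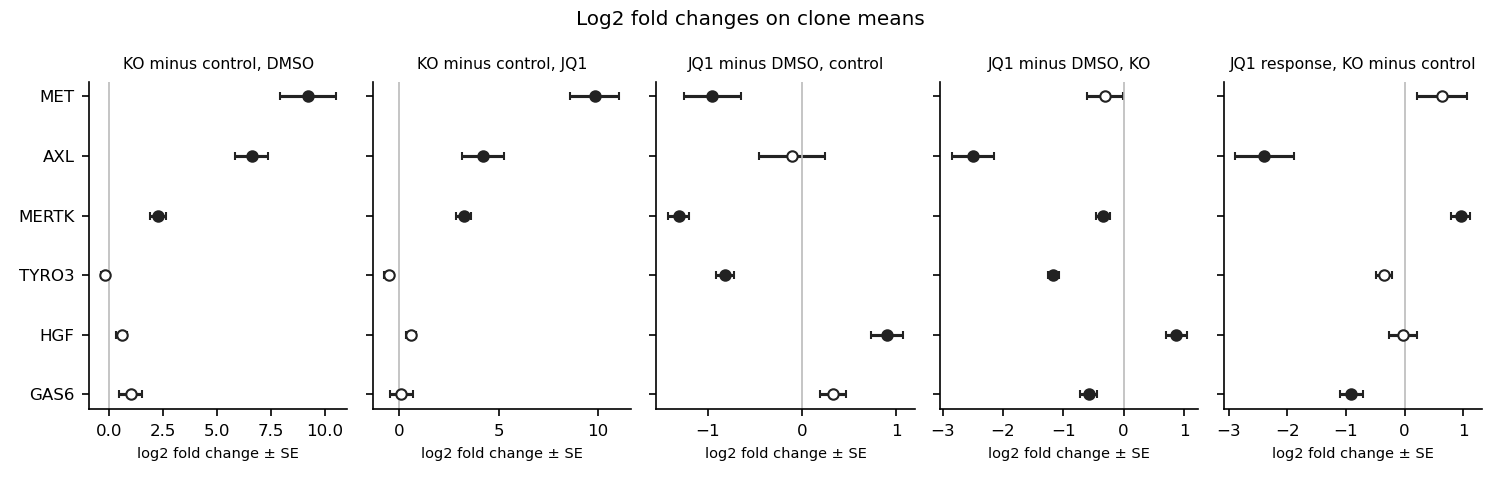
Log2 fold changes with their standard errors for the 5 comparisons on clone means (n = 3 clones in each group), each panel with its own axis; filled points passed an adjusted p of 0.05 in limma over all genes. The largest value is that of MET between genotypes, at 9.20 with DMSO and 9.84 with JQ1.

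MET, the HGF receptor, was close to absent in control clones and abundant in 2 of the 3 knockout clones. The 9 control libraries with DMSO ran from 0 to 4.25 normalized counts with a median of 2.12. Knockout clone 12 had 6915, 7149 and 7136 normalized counts, clone 15 had 3360, 3588 and 3527, and clone 2-1 had 161, 169 and 199. Every knockout library thus lay above every control library, and the 3 knockout clones did not overlap each other. In reads, the control group held 19 and the knockout group 30582 with DMSO, a ratio of 1640.3 after scaling by the DESeq2 size factors (exact 95% interval 1050.2 to 2725, counting error only). The log2 fold change on clone means was 9.20 (SE 1.29, limma adjusted p = 0.00641), higher in 3 of 3 clones.

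With JQ1, MET was at 0 in 6 of the 9 control libraries, and the control reads summed to 6 against 20515 in the knockout clones. The genotype difference was 9.84 on the log2 scale (SE 1.23, limma adjusted p = 0.00327). JQ1 itself left MET high: clone 12 had 4677 and 4507 normalized counts, clone 15 had 3275, 3563 and 3470, and clone 2-1 had 135, 153 and 149. These lay below the DMSO libraries in clones 12 and 2-1 and overlapped them in clone 15. Over the knockout clones the JQ1 change of -0.31 (SE 0.30) did not pass (limma adjusted p = 0.408). In control clones the change of -0.95 (SE 0.30) passed (limma adjusted p = 0.0262), but it rests on 19 and 6 reads, a ratio of 0.325 with an interval of 0.106 to 0.847. It did not pass in edgeR on those reads (adjusted p = 0.129), nor without control clone 3 (-0.67, limma adjusted p = 0.151) or without control clone 10 (-0.71, adjusted p = 0.144).

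HGF, the MET ligand, was expressed in every clone and rose with JQ1 in both genotypes. Control clone 3 went from 1342, 1296 and 1310 normalized counts with DMSO to 2513, 2626 and 2709 with JQ1. Clone 10 went from 795, 863 and 860 to 1607, 1542 and 1555, and clone 13 from 1488, 1452 and 1538 to 2365, 2868 and 2684. No JQ1 library overlapped a DMSO library of its own clone. Among the knockout clones, clone 12 went from 1486, 1483 and 1344 to 4237 and 4044. Clone 15 went from 1965, 2038 and 2125 to 3055, 3285 and 3071, and clone 2-1 from 1909, 2048 and 1972 to 2776, 2635 and 2854. The rise was 0.90 on the log2 scale in control clones (SE 0.17, limma adjusted p = 0.00215) and 0.87 in knockout clones (SE 0.17, adjusted p = 0.00232). The genotypes did not differ in HGF past the threshold with DMSO (0.60, SE 0.25, limma adjusted p = 0.18) or with JQ1 (0.58, SE 0.25, adjusted p = 0.198), and their library ranges overlapped.

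The HGF rise depended on which table was read. In FPKM, which divide by the transcript length that RSEM estimates in each library, the change was 0.45 in control clones (limma adjusted p = 0.0602) and 0.12 in knockout clones (adjusted p = 0.596). Clone 2-1 went the other way in FPKM, from 58.2, 64.1 and 60.8 to 46.6, 43.7 and 47.6, a ratio of 0.753, where its normalized counts gave 1.39. The number of counts per FPKM, taken relative to the median gene of each library, describes this gap between the tables. For HGF this number rose with JQ1 in all 6 clones, by 1.46-fold on average. Averaged over the clones, 3 of 10801 genes with enough signal in both tables rose further, and the middle 95% of genes lay between 0.89 and 1.11. TYRO3 and GAS6 lay inside that range, at 0.974 and 1.00 on average. GENCODE 29 lists 11 protein-coding HGF transcripts of 545 to 5987 bases. The measure was chosen after the values were seen, and whether long and short HGF transcripts changed in share was not tested.

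**Figure D4:**
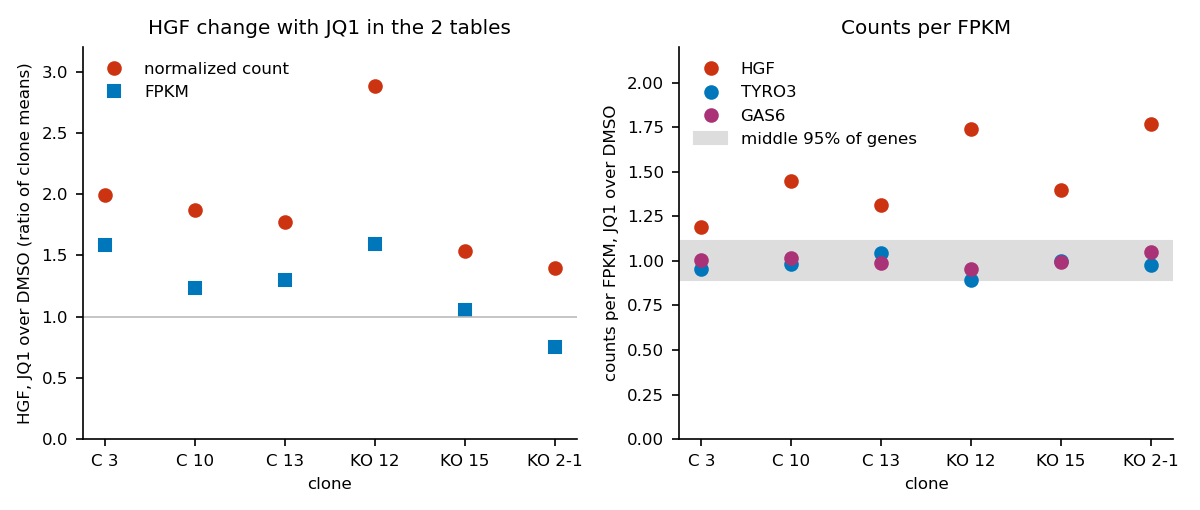
Left, ratio of the HGF clone mean with JQ1 to that with DMSO, from normalized counts (red circles) and FPKM (blue squares), for the 6 clones; right, the JQ1 over DMSO ratio of counts per FPKM for HGF, TYRO3 and GAS6, with the middle 95% of 10801 genes in grey. The dots are single clones, whereas the grey band is of gene means over the 6 clones, and a band for single clones was not computed. The FPKM ratio lies below the count ratio in every clone and falls to 0.753 in KO 2-1, and HGF lies above the grey band in all 6 clones.

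MST1R, which encodes RON, was listed at 0 to 0.45 FPKM in the 35 libraries. The control libraries had a median of 0.01 FPKM with DMSO and 0 with JQ1, and the knockout libraries 0.02 and 0. Its groups overlapped with DMSO and with JQ1. Depth per value is not given by FPKM, so levels this low were not tested.

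AXL, a TAM receptor that binds GAS6, was at 0 in 8 of the 9 control libraries with DMSO and at 0.976 normalized counts in the other. Knockout clone 15 was highest, with 325, 368 and 358 normalized counts, followed by clone 12 with 74.9, 61.7 and 77.7 and clone 2-1 with 42.1, 45.3 and 49.9. All knockout libraries lay above all control libraries and the 3 clones did not overlap. The control group held 1 read and the knockout group 1416, a ratio of 1443 (interval 259 to 57035, counting error only). The log2 fold change was 6.61 (SE 0.76, limma adjusted p = 0.00308), higher in 3 of 3 clones.

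JQ1 lowered AXL in each knockout clone. Clone 15 fell to 116, 92.5 and 100 normalized counts, clone 12 to 9.72 and 15.2, and clone 2-1 to 4.08, 4.71 and 2.84. No JQ1 library reached the DMSO range of its clone, and the change was -2.50 on the log2 scale (SE 0.35, limma adjusted p = 0.000451). With JQ1 the 9 control libraries were all at 0 against 376 knockout reads, so that AXL was at least 132-fold higher in the knockout group, taking 3 reads over the group as the floor. The test on clone means gave 4.23 (SE 1.06, limma adjusted p = 0.0464). That call was lost in edgeR on summed reads (adjusted p = 0.0648), with a pseudocount of 5 (2.34, limma adjusted p = 0.128), and without any 1 of the clones but knockout clone 2-1, with adjusted p of 0.0533 to 0.135.

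MERTK, the TAM receptor of dead-cell uptake, was expressed in both genotypes and was higher in the knockout. Control libraries with DMSO ran from 79.1 to 142 normalized counts with a median of 102. Clone 15 had 838, 811 and 820, clone 2-1 had 528, 531 and 559, and clone 12 had 314, 287 and 303. The groups did not overlap, and the difference was 2.28 on the log2 scale (SE 0.38, limma adjusted p = 0.0113), or 2.14 with an adjusted p of 0.0519 without control clone 10. With JQ1 the control libraries ran from 27.0 to 50.7 with a median of 41.1. Clone 15 then had 603, 688 and 651, clone 2-1 had 379, 382 and 419, and clone 12 had 266 and 245. The difference with JQ1 was 3.24 (SE 0.36, limma adjusted p = 0.00209).

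JQ1 lowered MERTK by 1.31 on the log2 scale in control clones (SE 0.11, limma adjusted p = 4.8e-05), with every JQ1 library below every DMSO library. In knockout clones the change was -0.35 (SE 0.11, limma adjusted p = 0.0282). This smaller change was lost under 8 of 25 alternatives. Among them were the left-out library restored (-0.23, limma adjusted p = 0.219) and the fits without knockout clone 15 (-0.35, adjusted p = 0.105) or without knockout clone 2-1 (-0.29, adjusted p = 0.125). It was also lost in FPKM (-0.31, limma adjusted p = 0.0895) and with the spread of the knockout clones alone (adjusted p = 0.0596).

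TYRO3 was the TAM receptor with the most even level across clones and fell with JQ1 in all of them. With DMSO the control libraries ran from 491 to 750 normalized counts (median 648) and the knockout libraries from 441 to 633 (median 535). With JQ1 the control libraries ran from 263 to 426 (median 371) and the knockout libraries from 205 to 266 (median 247). In each clone every JQ1 library lay below every DMSO library. The change was -0.82 in control clones (SE 0.10, limma adjusted p = 0.000206) and -1.16 in knockout clones (SE 0.10, adjusted p = 3.61e-05). The genotypes overlapped and did not differ past the threshold with DMSO (-0.18, SE 0.19, limma adjusted p = 0.598) or with JQ1 (-0.52, SE 0.22, adjusted p = 0.179).

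GAS6, a ligand of the TAM receptors, varied mostly between clones. With DMSO, control clone 3 had 65.2, 49.98 and 49.84 normalized counts, clone 10 had 76.4, 89.8 and 96.2, and clone 13 had 79.7, 92.8 and 104. Knockout clone 12 had 349, 323 and 374, clone 15 had 119, 120 and 151, and clone 2-1 had 95.5, 91.7 and 62.2. Clone 2-1 lay within the control range while clones 12 and 15 lay above it. The genotype difference was 1.02 with DMSO (SE 0.54, limma adjusted p = 0.281) and 0.11 with JQ1 (SE 0.56, adjusted p = 0.931). With JQ1, clone 12 fell to 230 and 215, clone 15 to 106, 78.5 and 80.0, and clone 2-1 had 48.0, 76.2 and 48.3. The knockout clones changed by -0.58 on the log2 scale (SE 0.14, limma adjusted p = 0.00712), whereas the control change of 0.33 (SE 0.14, adjusted p = 0.0751) did not pass.

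The JQ1 response differed between genotypes for MERTK, GAS6 and AXL. MERTK changed by -1.54, -1.27 and -1.11 on the log2 scale in control clones 3, 10 and 13 and by -0.24, -0.35 and -0.46 in knockout clones 12, 15 and 2-1, and the difference was 0.96 (SE 0.16, limma adjusted p = 0.0187). GAS6 changed by 0.02, 0.37 and 0.60 in the control clones and by -0.64, -0.56 and -0.53 in the knockout clones, a difference of -0.91 (SE 0.20, adjusted p = 0.0322). For AXL the difference of -2.39 (SE 0.50, limma adjusted p = 0.0301) set a fall in the knockout clones against control clones at 1 read with DMSO and 0 with JQ1. On summed reads, where the change is relative, it was -0.56 in edgeR (adjusted p = 0.815) and -1.63 in DESeq2 (adjusted p = 0.611). None of the 3 calls remained without any 1 of the 3 control clones or without knockout clone 15, and only MERTK kept its call without knockout clone 12. With the left-out library restored, MERTK kept its call, and AXL and GAS6 lost theirs (limma adjusted p = 0.137 and 0.0742).

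**Figure D5:**
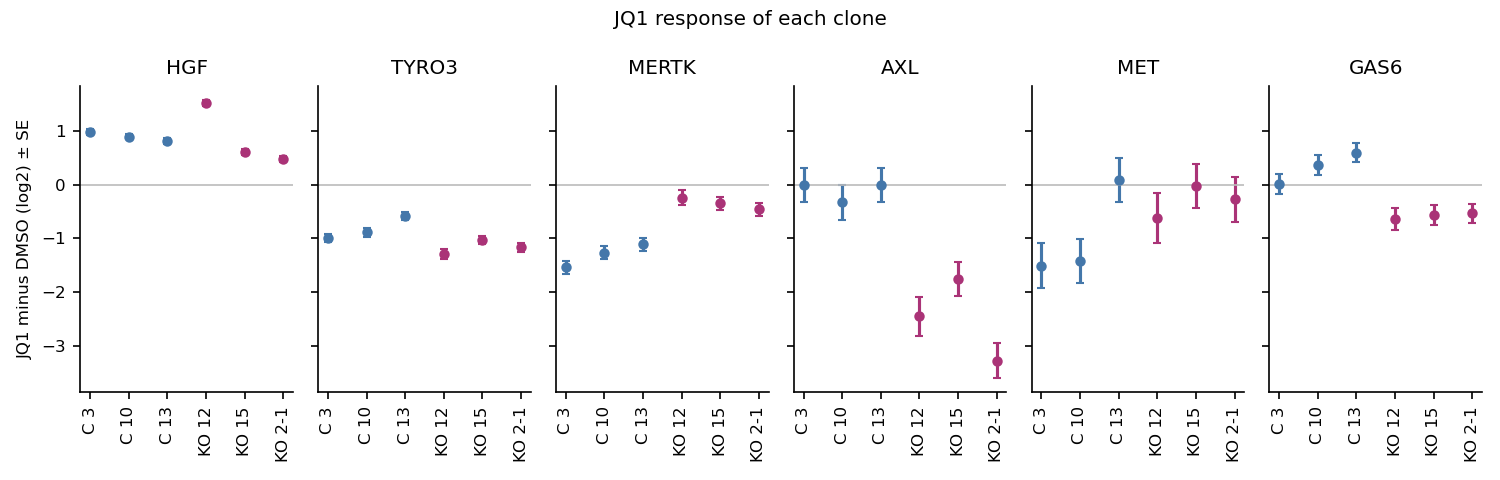
JQ1 minus DMSO on the log2(normalized count + 1) scale for each gene and clone, with control clones in blue and knockout clones in purple; bars are standard errors from 1 limma fit over the libraries. HGF lies above 0 and TYRO3 and MERTK below 0 in all 6 clones, and the AXL fall is seen in knockout clones 12, 15 and 2-1.

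The knockout clones differed from each other in all 6 members with DMSO by limma's F test over libraries (adjusted p from 4.87e-13 for MET to 0.000838 for TYRO3), where 78.1% of all genes passed. The control clones differed in 4 of 6 (HGF, TYRO3, MERTK and GAS6), where 61.6% of all genes passed. These tests use 3 libraries of a clone as replicates and so speak of these clones. The order of the knockout clones was not the same for each gene: clone 12 was highest for MET and GAS6, and clone 15 for AXL and MERTK. The JQ1 response differed among the knockout clones for HGF (1.53, 0.62 and 0.48 in clones 12, 15 and 2-1, limma adjusted p = 4.54e-12) and AXL (-2.45, -1.76 and -3.28, adjusted p = 0.0295), or 2 of 6 members against 34.0% of all genes. Without any 1 of the replicates HGF kept this call and AXL lost it.

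Other transcripts moved with the genotype. The 11 measured neuroendocrine markers, which include NEUROD1, summed to 38361 to 49249 normalized counts in control and 5968 to 15519 in knockout libraries with DMSO. Among the 35 libraries, UCHL1 was highest in knockout clone 12 with JQ1, at 5210 normalized counts, and each other marker of this list in a control clone. The 6 stromal markers summed to 2296 to 9182 and 25522 to 55027, with none at 0 throughout, and did not all move one way. DCN, LUM, COL1A2 and COL3A1 had their highest library in a knockout clone, at 9565, 16668, 30172 and 11397 normalized counts, and COL1A1 and PDGFRB in a control clone, at 2232 and 145. The 2 measured endothelial markers, VWF and CDH5, summed to 4326 to 8478 in control and 2.05 to 272 in knockout libraries with DMSO. CDH5 made up nearly all of the control sums: it reached 8474 normalized counts, and VWF at most 27.5 in the 35 libraries. The 6 measured blood and macrophage markers, of interest because macrophages express MERTK, AXL and GAS6, summed to 30.2 to 91.4 and 230 to 935. Of these, CD68 reached 916 normalized counts, while CD74, PTPRC and C1QB reached at most 19.5, 22.0 and 13.6 in the 35 libraries, and C1QB was at 0 in every knockout library with DMSO. The part of these transcripts in the differences of MET, AXL and MERTK was not tested.

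Over the 12 means of clone and treatment, Pearson's r was 0.91 for MET with AXL, 0.89 for AXL with MERTK and 0.87 for MET with MERTK. These 3 are the members called higher in the knockout clones, so the coefficients restate that step, and within the knockout clones with DMSO their orders differed (MET highest in clone 12, AXL and MERTK in clone 15). HGF with TYRO3 gave -0.68. Among 12232 genes, the nearest to MET were SPINK6 (r = 0.99), RUNX2 (0.99) and LANCL3 (0.99). XDH, BBOX1 and KRT5, a basal keratin, were nearest to AXL, at 0.98, 0.98 and 0.97. GPNMB, STON1 and RTFDC1 were nearest to MERTK, at 0.98, 0.98 and 0.97. For HGF they were HERC4, UBXN2A and SYNM (0.95, 0.94 and 0.93), for TYRO3 CERS2, TMEM161B-AS1 and AARS2 (0.96, 0.96 and 0.96) and for GAS6 APOO, SMPD2 and MAST4 (0.94, 0.92 and 0.91). The means share clones and libraries, and these coefficients describe 12 points.

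Of 11 tested genes that act with MET at the membrane, 6 passed with DMSO, all higher in the knockout clones, where 12.5% of all genes passed in either direction. The 11 had a median log2 fold change of 1.25 against 0.01 over all genes. The list was chosen with earlier results of these data known. The 6 were the co-receptor CD44 (1454 ± 686 to 6718 ± 2519 normalized counts, SD over 3 clones), the laminin-binding integrin chains ITGA6 and ITGB4, the semaphorin receptor PLXNB1, the tetraspanin CD151 and the heparan sulfate carrier SDC1. Their log2 fold changes were 2.25, 4.89, 4.95, 1.53, 0.79 and 2.15 in that order. With DMSO, ITGA6 averaged 1.05 ± 0.913 normalized counts in control and 60.5 ± 61.6 in knockout clones, and ITGB4 2.12 ± 0.910 and 135 ± 152. At these control levels both needed the knockout libraries to pass the filter and could only be called higher. With JQ1, 2 of the 11 were higher in the knockout clones (PLXNB1 and ITGB4) and 1 lower (SEMA4D), against 11.2% of all genes. JQ1 lowered 7 of the 11 and raised 0 in knockout clones, where it lowered 4746 and raised 4136 of all 15711 genes, 56.5% in either direction.

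Of 13 genes for the activation of HGF and macrophage-stimulating protein, 4 could be tested. Their differences between genotypes with DMSO were 0.09 for MST1, 1.06 for PLAU, 4.02 for PLAT and 2.47 for SPINT1 on the log2 scale, with limma adjusted p of 0.899, 0.364, 0.0516 and 0.137. The ligand of RON, MST1, had 27.0 ± 5.36 normalized counts in control and 28.4 ± 4.52 in knockout clones (SD, n = 3). JQ1 lowered PLAT, a plasminogen activator, and SPINT1, an inhibitor of the HGF-activating protease, in both genotypes. It raised PLAU, another plasminogen activator, in control clones (1.32, limma adjusted p = 0.0047). MST1 fell with JQ1 in knockout clones (-1.14, limma adjusted p = 0.0103). With JQ1, PLAT was higher in knockout than in control clones (5.31, limma adjusted p = 0.0105). The other tested genes of this list did not pass there, where 11.2% of all genes did. PLAU (-1.69, limma adjusted p = 0.0426) and PLAT (1.29, adjusted p = 0.044) differed between genotypes in JQ1 response, against 7.35% of all genes.

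Of 25 adaptors, effectors and regulators below MET and RON, 3 differed with DMSO, a share close to the 12.5% of all genes. PIK3R1, a regulatory subunit of PI3K, and the kinase SRC were higher in knockout clones by 1.04 and 0.79, and the phosphatase PTPN11 was lower by 0.93 on the log2 scale. The median over the 25 was 0.07 against 0.01 over all genes. JQ1 raised 11 and lowered 8 of them in control clones, where 52.7% of all genes changed, and raised 10 and lowered 5 in knockout clones, where 56.5% changed.

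Of 16 tested genes for TAM ligands, their maturation, effectors and shedding, 4 were higher and 1 lower in knockout clones with DMSO, against 12.5% of all genes. PROS1, another TAM ligand, was higher by 1.47, the cytokine-signal inhibitor SOCS3 by 3.73, the exchange factor VAV3 by 2.23 and DOCK1 by 0.67, while TUB was at -1.92. The median was 0.35, against 0.01 over all genes. JQ1 lowered PROS1 in control (-0.80) and knockout clones (-0.67), and with it GGCX, the enzyme of the vitamin K-dependent modification (-0.49 and -0.54). In knockout clones JQ1 lowered 9 of the 16 and raised 4, against 56.5% of all genes changed, and ADAM17, a protease that sheds TAM receptors, was lower by 0.53.

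Among 53 other receptor tyrosine kinases, 31 were tested and 5 differed with DMSO, against 12.5% of all genes, with 3 higher (FGFR1 at 2.24, ROR1 at 1.44 and EPHB3 at 7.37) and 2 lower (NTRK3 at -10.12 and EPHA10 at -3.15) in knockout clones. The median of the 31 was 0.03, against 0.01 over all genes. NTRK3 averaged 0.113 normalized counts in knockout clones with DMSO, passed the filter only through control libraries and could only be called lower. EGFR fell below the filter and was high in part of the knockout clones, at 1129 ± 1918 normalized counts against 0.127 ± 0.220 in controls (SD over 3 clones). JQ1 lowered 12 and raised 5 of the 31 in control clones and lowered 14 and raised 4 in knockout clones, close to the 52.7% and 56.5% of all genes changed.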

How the data were processed

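Poly(A) RNA of 36 libraries was made with a stranded mRNA kit, per the labels' protocols. The submitters' processing notes name cutadapt, STAR, RSEM and build hg19 without versions. The authors' deposited normalized counts are a signal: the reads of each gene over a DESeq2 size factor. Whole reads were recovered from them (100% of values whole in each of the 36 columns, within a relative tolerance of 1e-06). The deposited FPKM come from RSEM, per the file headers.

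The test covered the 15711 genes that reached 10 normalized counts in 9 or more libraries. Log2(normalized count + 1) was averaged by clone and treatment and fitted with limma 3.58.1 in R 4.3.3, with clones as replicates of the genotype, and p-values were adjusted by Benjamini-Hochberg. Reads summed by clone were tested with edgeR 4.0.16 and DESeq2 1.42.0 as alternatives. FPKM were tested on log2(FPKM + 0.1). The labels call the replicates biological without saying how they were grown, and p-values measure the spread between these clones. Intervals for reads are exact at 95% and cover counting error only. The fits were tested on simulated data.

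The 7 members and the lists of partner genes were chosen with earlier results of these data known. Named genes were all members, up to 4 genes of each list past the threshold (largest change first, mean of at least 50 normalized counts) and the 3 genes most like each member by Pearson's r over 12 means. Other list genes named were chosen after their values were seen. Figures were drawn with matplotlib 3.10.9. The alternatives are in the closing section.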

Additional observations from a re-analysis of the deposited data

Results flagged for a closer look

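The JQ1 response differed between the genotypes for MERTK (0.96 on the log2 scale, knockout minus control clones), AXL (-2.39) and GAS6 (-0.91) by limma's test of the difference itself. None of these calls remained without any 1 of the 3 control clones. AXL held 1 read with DMSO and 0 with JQ1 in the control clones, so no fall could be measured there, and edgeR on reads gave -0.56 (adjusted p = 0.815). The library left out, the first JQ1 library of knockout clone 12, is not used in any comparison and held several members above every control library with JQ1. MET was at 3135 normalized counts there (other libraries of that clone 4677 and 4507), AXL at 317 (9.72 and 15.2), MERTK at 542 (266 and 245) and GAS6 at 435 (230 and 215). MST1R was listed at 5.13 FPKM, against at most 0.45 in the 35 other libraries. HGF, at 1473 normalized counts, lay below its 2 companion libraries at 4237 and 4044. Its lung markers summed to 68046 normalized counts, its blood markers to 15691 and its stromal markers to 69439, and their part in these values was not tested.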

How the results depend on the processing

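Each of 30 member results was recomputed under 24 or 25 alternatives, 732 values in all: 652 kept direction and side of the threshold, 64 lost their call, 9 gained one and 7 changed sign. MET, AXL and MERTK between genotypes with DMSO kept their calls under all 24, except MERTK without control clone 10. The sign changes were in differences that had not passed. GAS6 between genotypes with JQ1 became -0.029 with single libraries as replicates, -0.035 with a replicate block added, and -0.44 (without knockout clone 12) to 0.54 (without knockout clone 2-1) with 1 clone left out, -0.28 without control clone 3, and the HGF difference in JQ1 response ran from -0.35 without knockout clone 12 to 0.17 without knockout clone 2-1, with 0.02 without control clone 3 and 0.10 without knockout clone 15. The cause was not tested.

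Counts of members moved by over 1.5 times as follows. With single libraries as replicates, with or without a replicate block, 5 members passed between genotypes with DMSO, 5 with JQ1, 3 for JQ1 in knockout clones and 1 for the difference in response. In FPKM, 2 passed for JQ1 in control and 3 in knockout clones. For the difference in response, 1 passed with no trend in the prior variance and 1 with the left-out library restored. With 1 clone or replicate left out, the difference in response gave 0 to 3 members. The response among knockout clones was refitted without 1 replicate, not without a clone, and gave 1 member throughout.

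Of all genes, single libraries called 7913 with DMSO and 7603 with JQ1 between genotypes (7758 and 7413 with the replicate block), DESeq2 called 3284 and 2908 and, for the difference in response, 1769. That difference gave 521 genes in FPKM, 199 with no trend and 490 with the left-out library. Leaving out 1 clone or replicate gave 911 to 2017 and 731 to 1701 genes between genotypes with DMSO and JQ1, and 12 to 1636 for the difference. For the response among knockout clones, leaving out 1 replicate gave 2771 to 4185 genes. Deviations of same-numbered libraries from their group means correlated from -0.183 to 0.188, with 12 of 165 pairs over 0.1. Differently numbered libraries gave -0.185 to 0.179, with 24 of 330 pairs over 0.1. This check cannot show whether same-numbered libraries were handled together, and the main fits did not pair them. Depth limits MET and AXL in control clones, with 19 reads and 1 read over 9 libraries. The alternative without the first JQ1 library of control clone 13 was chosen after seeing the data.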
